A study of Mus musculus with 282 samples.

Results

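The Period and cryptochrome repressors of the circadian clock were followed here as 6 genes, Per1, Per2, Per3, Cry1, Cry2 and Ciart. The genes were chosen by name, but with earlier results of these data known, so counts of called members are no independent check. They are 6 of the 15907 genes in the deposited liver tables. All 6 passed the filter on low values, an average of 1 or more reads per megaread (RPM; M stands for megareads below). That average runs over all libraries of a table and not over each arm. The samples were livers of male C57BL/6J mice kept alone in cages under 12 h of light and 12 h of dark, with time given as zeitgeber time (ZT), the hours after lights on. RNA of the lateral lobe was read with a 3′ tag method (QuantSeq), which counts reads near the end of each transcript.

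The 282 libraries fall into 16 arms. Night-fed (NF) mice without Bmal1 in the whole body (BMKO) were given rapamycin, given vehicle or not injected, and the night-fed wild-type (WT) mice set against them had the same 3 treatments. Mice with Tsc1 (TSKO) or Raptor (RPKO) deleted only in the liver were set against mice that carry the Albumin-Cre driver alone (AC), all night fed. The Albumin promoter that drives Cre is active in cells of the hepatocyte lineage, so bulk liver also holds cells that are not its main target. Arrhythmically fed (AF) WT mice received the mTOR kinase inhibitor AZD8055 at dawn (AZDday), received it at dusk (AZDnight) or were not injected, and WT mice fed ad libitum (LB) were not injected. These 13 arms were sampled at ZT 2, 6, 10, 14, 18 and 22 with 3 libraries per time. In a second table, 3 arms of WT mice received tunicamycin (TM), a drug that stresses the endoplasmic reticulum, under arrhythmic feeding with AZD8055 at dusk, under arrhythmic feeding alone or under night feeding. They were sampled at ZT 4, 10, 16 and 22 with 4 libraries per time. The labels name biological replicates, and each library was taken as 1 mouse. Whether libraries of compared arms overlap at a time was counted for the members alone. No share of all genes stands beside those counts, so they describe libraries and are no test.

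In the mammalian clock, BMAL1 with CLOCK or NPAS2 binds E-box sequences and activates the Per, Cry and Ciart genes. PER and CRY proteins then enter the nucleus together and block that activation, which closes the daily loop. In liver, Per1 and Per2 also respond to cues from outside the cell such as glucocorticoids, cAMP, feeding and temperature, while REV-ERB proteins repress Cry1 and D-box factors act on Per genes. Ciart, also called Chrono, encodes a further repressor that binds BMAL1. Ubiquitin ligases mark CRY proteins for breakdown, and casein kinases mark PER proteins.

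Libraries of the first table held 0.706 to 14.3 M recovered reads (median 8.51) and those of the table with tunicamycin held 4.85 to 10.1 M (median 7.71). In all, 3 libraries held fewer than 3 M reads, namely BMKO uninjected ZT 6 replicate 1, BMKO uninjected ZT 22 replicate 3 and WT with rapamycin ZT 22 replicate 1. Hepatocyte markers were high in every arm (7 of 7 measured), and no arm had a hepatocyte marker with a median of 0. Of the deleted genes, Tsc1 had a median of 7.57 RPM (3.72 to 11.2) in TSKO livers and 14.9 RPM (9.33 to 22.6) in AC livers, and Rptor, the Raptor gene, had 4.52 RPM (2.68 to 9.50) in RPKO livers and 8.54 RPM (6.73 to 11.6) in AC livers. Arntl, the Bmal1 gene, still gave 9.97 RPM (6.08 to 17.0) in uninjected BMKO livers, against 11.9 RPM (0.176 to 26.5) in WT livers. A 3′ tag outside a deleted part does not check a deletion, and the labels do not say which part was removed. The uninjected ad libitum libraries of ZT 10 replicate 3 and ZT 14 replicate 3 each resembled the other time for Cry1 (14 RPM at ZT 10 and 3.92 RPM at ZT 14), so results with that arm are also given without them.

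On GRCm38 (GENCODE M21), Per1 lies at chr11:69095217-69109960 (plus strand), Per2 at chr1:91415982-91459324, Per3 at chr4:151003652-151044665, Cry1 at chr10:85131700-85185064, Cry2 at chr2:92403646-92434043 and Ciart at chr3:95878503-95882251 (all minus strand). The span of Camta1 covers Per3 on the same strand, and D930015M05Rik and C920021L13Rik overlap Cry2 and Ciart on the opposite strand. Whether the counting used strand is not given in the sources used here, so reads of those overlapping genes cannot be told apart from reads of Per3, Cry2 and Ciart. RefSeq promoter windows (GRCm38.p6, 250 bases before to 50 after the start) matched 5 of the 6 members, Per2 being named only. The bases before the start are shown because the comparisons turn on a factor that binds E-boxes, and capitals mark the motif matches.
Ciart, chr3:95882229-95882478, minus strand: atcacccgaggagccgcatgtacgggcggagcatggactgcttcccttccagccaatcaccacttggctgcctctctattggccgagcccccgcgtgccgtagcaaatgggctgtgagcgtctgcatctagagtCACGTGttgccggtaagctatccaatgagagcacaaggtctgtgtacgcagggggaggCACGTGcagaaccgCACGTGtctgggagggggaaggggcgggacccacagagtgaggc
Cry1, chr10:85185055-85185304, minus strand: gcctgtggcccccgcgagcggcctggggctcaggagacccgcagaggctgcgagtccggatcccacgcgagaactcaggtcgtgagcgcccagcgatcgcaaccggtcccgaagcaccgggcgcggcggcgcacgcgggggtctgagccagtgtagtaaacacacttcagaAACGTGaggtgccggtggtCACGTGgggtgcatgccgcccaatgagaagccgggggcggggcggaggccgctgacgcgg
Per1, chr11:69098699-69098948, plus strand: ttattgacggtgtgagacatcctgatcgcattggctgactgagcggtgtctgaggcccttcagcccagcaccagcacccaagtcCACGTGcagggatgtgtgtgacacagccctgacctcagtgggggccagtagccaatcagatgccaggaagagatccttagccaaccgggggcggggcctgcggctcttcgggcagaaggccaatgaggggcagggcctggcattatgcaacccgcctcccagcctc
Per3, chr4:151044666-151044915, minus strand: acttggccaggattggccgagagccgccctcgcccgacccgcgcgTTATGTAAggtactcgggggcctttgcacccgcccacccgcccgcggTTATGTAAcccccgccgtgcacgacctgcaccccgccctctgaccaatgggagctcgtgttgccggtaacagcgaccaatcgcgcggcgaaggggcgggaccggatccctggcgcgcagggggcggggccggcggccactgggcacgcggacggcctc
Cry2, chr2:92434070-92434319, minus strand: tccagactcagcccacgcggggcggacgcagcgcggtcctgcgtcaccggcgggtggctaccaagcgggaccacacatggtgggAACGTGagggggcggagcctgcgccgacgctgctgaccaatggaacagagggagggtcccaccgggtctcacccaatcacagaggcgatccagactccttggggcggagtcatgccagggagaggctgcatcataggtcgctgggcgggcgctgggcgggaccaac

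Both strands were searched for CACGTG (the E-box), CACGTT (an E-box variant), TTANGTAA (the D-box), TGACGTCA (the cAMP response element) and ANTNGGTCA (the ROR and REV-ERB element). Ciart had 3 E-boxes, which begin at bases -116, -58 and -44 from the start. Cry1 had an E-box at -60 and the variant at -79, read on the opposite strand. Per1 had an E-box at -166 in the window shown and no match in its second RefSeq window (chr11:69099902-69100151). Per3 had D-boxes at -205 and -158 and no E-box, and Cry2 had only the variant, at -166 on the opposite strand. Of 32851 mouse promoter windows of the same length, 7.15% held the E-box, 4.68% the variant, 2.32% the D-box, 1.79% the cAMP response element and 2.24% the ROR and REV-ERB element. A match is a description of letters, not a site or a cause.

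In uninjected night-fed WT livers all 6 members had a 24 h rhythm. Their curves fell into an early group of Per1, Per3 and Ciart with peaks near ZT 11, Per2 with a peak about 3 h later, and Cry1 with a peak at night. Per1, the Period gene with the fewest reads, was measured at 14.5, 13.8 and 15.2 RPM at ZT 10, and at 0.569, 0.728 and 1.02 RPM at ZT 2. Every ZT 10 library was above every other library of that arm. Its amplitude, the distance from the daily mean to the peak of a fitted cosine on the log2 scale, was 1.57 (SE 0.172, limma adjusted p = 6.88e-06), and its peak was at ZT 11.6 (SE 0.419 h).

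Per3 had 37.4, 31.0 and 31.5 RPM at ZT 10 and 2.28, 1.31 and 1.02 RPM at ZT 2. Its 3 libraries at ZT 6 lay apart, at 15.2, 37.6 and 9.81 RPM, the second as high as the ZT 10 libraries. Its amplitude was 1.93 (SE 0.143, adjusted p = 3.52e-08) with a peak at ZT 11.5 (SE 0.282 h). Ciart had 20.6, 19.7 and 14.6 RPM at ZT 10 and 0.758, 0.582 and 0 RPM at ZT 2, where 3 reads in the library without a Ciart read would be 0.508 RPM. The amplitude of Ciart was 2.07 (SE 0.207, adjusted p = 2.22e-06) with a peak at ZT 11.4 (SE 0.383 h).

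Per2, a Period gene that also responds to glucocorticoid and temperature cues, had 48.5, 52.3 and 49.1 RPM at ZT 14 and 54.2, 39.6 and 40.1 RPM at ZT 18. It was low at ZT 2, with 3.79, 4.51 and 4.06 RPM. Its amplitude was 1.75 (SE 0.107, adjusted p = 3.33e-09) with a peak at ZT 14.5 (SE 0.233 h). Cry1 had 31.7, 46.7 and 37.8 RPM at ZT 18 and 31.6, 38.5 and 32.5 RPM at ZT 22, against 3.61, 3.96 and 4.41 RPM at ZT 6. The amplitude of Cry1 was 1.63 (SE 0.0915, adjusted p = 1.27e-09) with a peak at ZT 19.3 (SE 0.214 h). Cry2 moved least, with 23.0, 20.9 and 17.3 RPM at ZT 10 and 12.1, 11.2 and 11.1 RPM at ZT 22. Its amplitude was 0.32 (SE 0.0825, adjusted p = 0.0239), and this call was lost when the libraries of any 1 replicate number were left out (adjusted p = 0.0867 to 0.226).

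Under all 3 feeding schedules the fitted peaks of the 5 strongly cycling members came in the order Per3 and Ciart, then Per1, Per2 and Cry1. No member's rhythm passed the test for a difference. The place of Per1 was not resolved under every schedule. It followed Per3 by 0.15 h (SE 0.505) under night feeding, against 2.49 h (SE 0.619) under arrhythmic feeding. Per2 followed Per1 by 0.46 h (SE 0.723) under arrhythmic and 0.52 h (SE 0.613) under ad libitum feeding, against 2.84 h (SE 0.48) under night feeding. Cry2, with its small amplitude, had its fitted peak at ZT 12.5 under arrhythmic, ZT 12.9 under ad libitum and ZT 10.4 under night feeding. In arrhythmically fed livers all 6 members had a rhythm, with amplitudes of 1.31 for Per1, 1.17 for Per2, 1.75 for Per3, 1.26 for Cry1, 0.39 for Cry2 and 1.78 for Ciart. Per2 had 34.9, 37.0 and 28.5 RPM at ZT 14 under arrhythmic feeding, against 48.5, 52.3 and 49.1 RPM under night feeding. At that time the arrhythmically fed libraries all lay below the night-fed ones, while at ZT 2 they all lay above, at 4.87, 5.60 and 7.91 RPM. Peaks under arrhythmic minus night feeding differed by -1.4 h (SE 0.532) for Per2, -1.36 h (SE 0.411) for Per3, -1.17 h (SE 0.357) for Cry1, -1.17 h (SE 0.477) for Ciart and 0.97 h (SE 0.686) for Per1.

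Of the 6 members, 0 were called by limma for a rhythm difference between arrhythmic and night feeding, where 4.62% of all tested genes were called. At an unadjusted p under 0.05 there were 3 members (Per2, Per3 and Cry1), edgeR called 0, and the lowest adjusted p was 0.0589, for Per2. With the 2 doubtful ad libitum libraries left out of the shared fit the count was 2. Those libraries were picked by their values of a member, Cry1, so this count is no independent check. The daily mean differed for 1 member against 44% of all genes. Cry2 was lower by 0.17 (log2 difference -0.17, SE 0.07, adjusted p = 0.0422), with overlapping libraries at all 6 times, and that call was lost with no filter (0.0515), in a joint fit (0.151), without the first libraries (0.277) and without the second (0.672).

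Under ad libitum feeding, set against the same night-fed livers, all 6 members again had a rhythm. Per1 had 0.795, 0.481 and 0.30 RPM at ZT 2 and 16.8, 9.43 and 7.92 RPM at ZT 10, and its peak was 2.24 h later than under night feeding (SE 0.506). The rhythm difference was called by limma for 0 of 6 members, where 0.854% of all genes were called. At an unadjusted p under 0.05 there were 3 (Per1, Per2 and Cry1), edgeR called 0, and Per1 had the lowest adjusted p, 0.129. Without the doubtful ad libitum libraries the count was still 0, and the amplitude of Cry1 under ad libitum feeding was 1.38 against 1.24 with them. Since these libraries were picked by their Cry1 values, the higher amplitude follows from the choice and is no check of it. The daily mean was called for 1 member, against 53% of all genes. Per3 averaged 11 ± 5.0 RPM under ad libitum feeding and 14.8 ± 6.50 RPM under night feeding (SD within times, n = 18 each), a log2 difference of -0.37 (SE 0.152, adjusted p = 0.0384). That call was lost by edgeR (0.0698), in a joint fit (0.0693), without the first libraries (0.262) and without the second (0.0748).

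**Figure D1:**
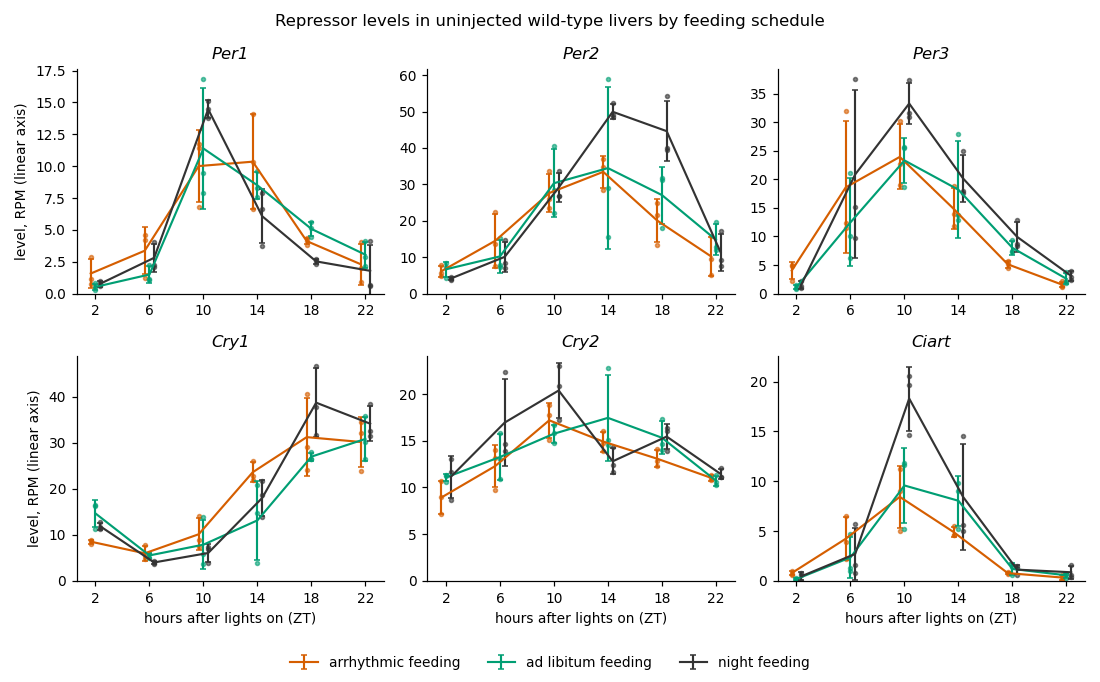
Level of each of the 6 members (RPM, linear axis from 0) against zeitgeber time (h) in WT livers under arrhythmic, ad libitum and night feeding. Points are libraries, lines join means of 3 libraries and bars are the SD; Per1, Per3 and Ciart are highest at ZT 10 or ZT 14, Per2 at ZT 14 and Cry1 at ZT 18 or ZT 22 under all 3 schedules.

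The other clock genes were counted in lists beside the members. In arrhythmically fed against night-fed livers, 3 of 9 genes of the REV-ERB, PAR bZIP and DEC list had a called rhythm difference, all with a smaller amplitude under arrhythmic feeding. These were Bhlhe41 (amplitude 1.22 and 1.95), the D-box factor Dbp (2.55 and 3.15) and the D-box factor Tef (1.05 and 1.41). None of the 5 activators and ROR receptors and none of the 16 PER and CRY kinases, ligases and stability factors were called. Of 14 chaperones driven by HSF1, the heat shock factor, 8 were called, all with a smaller amplitude under arrhythmic feeding, among them Dnaja1 (0.34 and 1.0) and Hsp90aa1 (0.50 and 1.26). Among 10 glucocorticoid-responsive genes, Klf9 was called (0.12 and 0.85). Over the rhythm difference vectors, the member median was 0.61 and that of all genes 0.20 on the log2 scale.

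Across all 16 arms Per1 was called rhythmic in 15, Per2 in 14, Per3, Cry1 and Ciart in 13, and Cry2 in 9. The share of all genes called rhythmic was 21.8% in uninjected night-fed WT livers (6 of 6 members), 14.9% with vehicle (5), 5.12% with rapamycin (5), 7.95% under arrhythmic feeding (6), 16.5% ad libitum (6), 21% with AZD8055 at dawn (5), 19.6% with AZD8055 at dusk (5), 23.3% in AC livers (5), 24.4% in TSKO livers (6) and 17.5% in RPKO livers (6). In BMKO livers it was 5.61% without injection (2 members), 5.49% with vehicle (2) and 0.274% with rapamycin (limma called 0 members, with 2 at an unadjusted p under 0.05 and 0 by edgeR). In the tunicamycin table it was 21.2% with AZD8055 at dusk (6), 7.52% under arrhythmic feeding (6) and 15% under night feeding (6).

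The spacing of the peaks can be read where both members of a pair had a called rhythm. In the first table Cry1 peaked 3.60 to 5.98 h after Per2 (9 arms, median 4.68 h), Per2 peaked 2.53 to 4.34 h after Per3 (9 arms, median 3.22 h) and Per2 peaked 0.46 to 3.84 h after Per1 (11 arms, median 2.54 h). The closest pair was Per3 and Ciart, with a median difference of 0.02 h over 10 arms (-0.94 to 2.36 h). In the 3 tunicamycin arms Cry1 followed Per2 by 5.68 to 6.80 h and Per2 followed Per3 by 1.24 to 2.14 h.

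The call of a Cry2 rhythm did not survive leaving out libraries in most arms that had it. Its amplitude lay between 0.24 and 0.49 in the 6 arms of the first table that called it. Leaving out 1 replicate number ended the call in the arms under arrhythmic feeding (adjusted p up to 0.084), ad libitum feeding (up to 0.0726), AZD8055 at dusk (up to 0.194), TSKO (up to 0.309) and RPKO (up to 0.332). With 1 replicate number left out, the amplitude of Cry2 was 0.355 to 0.411 under arrhythmic feeding (0.39 with all libraries). In TSKO livers it was 0.167 to 0.319 (0.24 with all libraries). Fewer libraries also weaken the test, so a lost call does not show that single libraries made the rhythm. In the tunicamycin table its amplitude was 0.63, 0.63 and 0.62 in the 3 arms.

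**Figure D2:**
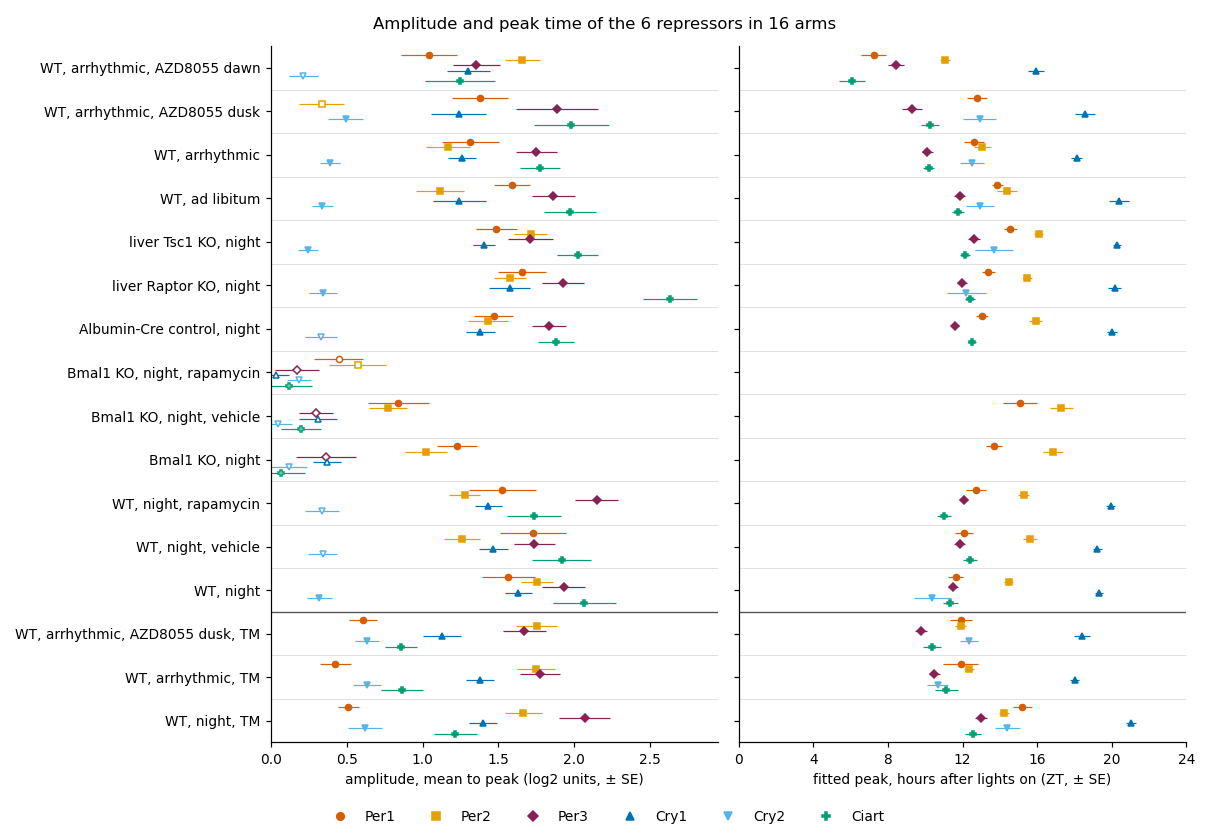
Amplitude (log2, mean to peak, with SE) and peak time (ZT, h, with SE) of each member in each of the 16 arms, with a line that sets the tunicamycin table apart. Filled symbols are called rhythms (adjusted p under 0.05) and open symbols are not, and peaks are drawn only for called rhythms; the 3 BMKO arms lie lowest for Per3, Cry1 and Ciart.

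Uninjected livers without Bmal1 had a called rhythm of Per1 and Per2, while Cry1 was higher, Per3 lower and Ciart nearly undetected, these 3 without a called rhythm. The amplitude of Cry1 in BMKO livers was 0.37 (SE 0.0921) and narrowly missed the threshold (adjusted p = 0.0525). Cry1 in uninjected BMKO livers had 34.6, 44.7 and 61.3 RPM at ZT 6, against 3.61, 3.96 and 4.41 RPM in WT livers. At ZT 18 it had 89.8, 74.7 and 69.3 RPM in BMKO livers, against 31.7, 46.7 and 37.8 RPM in WT livers. Every BMKO library lay above every WT library at all 6 times. Over the day Cry1 averaged 60.9 ± 12.0 RPM in BMKO livers and 18.8 ± 3.89 RPM in WT livers (SD within times, n = 18 each), a log2 difference of 2.05 (SE 0.0972, adjusted p = 1.82e-31).

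Ciart was close to the limit of detection without Bmal1. At ZT 10 it had 0, 0 and 0.441 RPM in BMKO livers, against 20.6, 19.7 and 14.6 RPM in WT livers. Of the 18 BMKO libraries 13 held no Ciart read, and 3 reads in those libraries would be 0.232 to 1.29 RPM, so a lower level was not detectable. In all, 13 Ciart reads were found among 152 M reads in BMKO livers and 586 among 105 M in WT livers. Its log2 difference was -2.41 (SE 0.174, adjusted p = 3.55e-21), and it was lower in every BMKO library at 5 of 6 times. A fold change this close to 0 reads depends on the pseudocount, so its size is no measure of the loss. Ciart averaged 0.0676 RPM in these BMKO livers and passed the filter only through arms where it was higher. Its p-values between BMKO and WT livers, here and below, are therefore no independent support.

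Per3 in BMKO livers had 4.20, 2.42 and 2.47 RPM at ZT 10, against 37.4, 31.0 and 31.5 RPM in WT livers. At ZT 2, the WT trough, it had 5.46, 5.52 and 3.35 RPM in BMKO livers, against 2.28, 1.31 and 1.02 RPM in WT livers. So the BMKO libraries all lay below WT at 4 times and all above WT at 1. Its daily mean was lower (log2 difference -1.24, SE 0.153, adjusted p = 3.31e-11). Cry2 was higher, with 33.2, 31.9 and 22.6 RPM at ZT 2 in BMKO livers, against 13.1, 11.6 and 8.64 RPM in WT livers. The log2 difference of Cry2 was 0.72 (SE 0.1, adjusted p = 1.51e-09), with no overlap at 4 of 6 times.

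Per1 kept a rhythm in BMKO livers, with 23.8, 13.7 and 16.9 RPM at ZT 14 and 2.89, 1.56 and 2.33 RPM at ZT 2. Its amplitude was 1.23 in BMKO livers (SE 0.134, adjusted p = 7.73e-05) and 1.57 in WT livers, and its peak came 2.06 h later in BMKO livers (SE 0.59). The daily mean of Per1 was higher (log2 difference 0.71, SE 0.2, adjusted p = 0.00116). Per2 had 39.5, 41.9 and 50.8 RPM at ZT 14 in BMKO livers and 48.5, 52.3 and 49.1 RPM in WT livers. At ZT 6 it had 3.20, 10.5 and 11 RPM in BMKO livers, where the lowest value came from a library of fewer than 3 M reads. The amplitude of Per2 was 1.03 in BMKO livers (SE 0.139, adjusted p = 0.000563) and 1.75 in WT livers, and its peak came 2.38 h later (SE 0.568). Its daily mean gave a log2 difference of 0.08 (adjusted p = 0.631).

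For the daily mean, 5 of 6 members were called between uninjected BMKO and WT livers, against 71.7% of all genes. For the rhythm, 4 of 6 were called, against 3.09% of all genes. The rhythm differences were 1.10 for Per2 (SE 0.2, adjusted p = 0.000522), 2.26 for Per3 (SE 0.217, adjusted p = 6.46e-12), 1.26 for Cry1 (SE 0.138, adjusted p = 3.91e-10) and 2.0 for Ciart (SE 0.246, adjusted p = 2.8e-08), each the length of the difference of the 2 fitted cosines on the log2 scale. Per1 (0.212) and Cry2 (0.165) did not pass the adjusted p. The call of Per2 was lost without the second libraries (adjusted p = 0.222), and that of Ciart by edgeR (0.542).

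In the vehicle-injected pair Cry1 and Cry2 were again higher and Per3 and Ciart again lower without Bmal1. Cry1 at ZT 6 had 45.4, 36.7 and 39.5 RPM in BMKO livers with vehicle, against 5.36, 3.16 and 5.03 RPM in WT livers with vehicle. Its log2 difference was 1.34 (SE 0.0972, adjusted p = 2.9e-20). Per3 (-1.08, SE 0.153, adjusted p = 2.17e-08) and Ciart (-1.71, SE 0.174, adjusted p = 2.71e-13) were lower in BMKO livers, and Cry2 was higher (0.30, SE 0.1, adjusted p = 0.0238). The Cry2 call was lost without any 1 replicate number (0.0711 to 0.147). In all, 4 members were called for the daily mean, against 21.7% of all genes.

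The rhythm differed between these vehicle arms for 4 members, against 1.75% of all genes. They were Per1 (1.28, SE 0.283, adjusted p = 0.0108), Per3 (2.03, SE 0.217, adjusted p = 2.94e-10), Cry1 (1.16, SE 0.138, adjusted p = 9.47e-09) and Ciart (1.72, SE 0.246, adjusted p = 2.48e-06). The Per1 call was lost without the first (0.103) or second libraries (0.277), and that of Ciart by edgeR (0.274). In BMKO livers with vehicle the rhythm of Per1 was at the threshold (amplitude 0.84, SE 0.201, adjusted p = 0.0497) and was lost under several settings, up to an adjusted p of 0.581 without 1 replicate number. That of Per2 had an amplitude of 0.77 (SE 0.124, adjusted p = 0.00438) and was lost without the second (0.262) or the third libraries (0.237).

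Whether the genotype difference itself changed with vehicle was tested directly, and 4 of 6 members were called, against 57.1% of all genes. Genotype differences with vehicle minus those without were -0.78 for Per1 (SE 0.283, adjusted p = 0.0152), -0.71 for Cry1 (SE 0.138, adjusted p = 8.69e-06), -0.43 for Cry2 (SE 0.142, adjusted p = 0.00816) and 0.71 for Ciart (SE 0.246, adjusted p = 0.0113). Without single replicate numbers the calls of Ciart (without the first or second), Per1 and Cry2 (without the second) were lost, and with the scaling as deposited those of Per1 (0.189) and Cry2 (0.947) were lost too. The value for Ciart is no measure of size, since it rests on 40 reads in BMKO livers with vehicle and 13 in those without, and it ran from 0.35 to 2.29 under other settings. For the rhythm, limma called 0 members and 0% of all genes, with 0 members at an unadjusted p under 0.05 and 0 by edgeR.

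**Figure D3:**
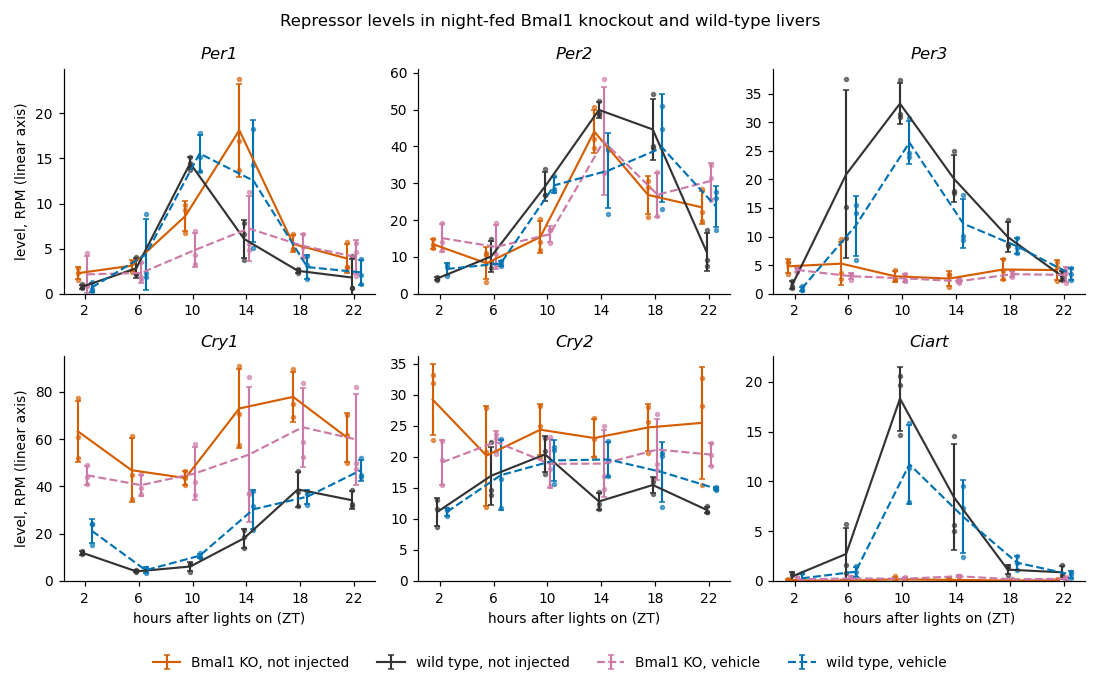
Level of each member (RPM, linear axis from 0) against zeitgeber time (h) in night-fed BMKO and WT livers, not injected (solid lines) or with vehicle (dashed lines). Points are libraries, lines join means of 3 libraries and bars are the SD. In BMKO livers Ciart is near 0, and Per1 and Per2 are highest at ZT 14. Without injection all Cry1 libraries of BMKO livers lie above those of WT livers at all 6 times, and with vehicle at 4 of 6.

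Other clock genes and cell markers also had called daily means in uninjected BMKO livers, in a comparison where 71.7% of all genes did. All 9 genes of the REV-ERB, PAR bZIP and DEC list had a called daily mean (2 higher and 7 lower), among them the Cry1 repressors Nr1d1 (-1.91) and Nr1d2 (-3.42). Of 5 activators and ROR receptors 3 were called (2 higher and 1 lower), among them Npas2, a partner of BMAL1, with a log2 difference of 2.95. Of 16 kinases, ligases and stability factors 11 were called (5 higher and 6 lower), among them the ubiquitin ligase subunits Cul4a (-0.66) and Ddb1 (0.70). The median over all genes was -0.06.

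Of the rhythm differences between uninjected BMKO and WT livers, 4 of 5 activators and ROR receptors and 7 of 9 of the REV-ERB, PAR bZIP and DEC list were called, all with smaller amplitudes in BMKO livers (0.25 and 3.15 for Dbp, 0.13 and 2.28 for Arntl). The count of activators includes Arntl, the gene deleted in BMKO mice, whose value is no independent result. Among the kinases and stability factors Usp2, a deubiquitinase of clock proteins, was the 1 of 16 called (0.90 and 2.63).

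The summed hepatocyte markers had a median of 49333 RPM (44042 to 58617) in uninjected BMKO livers and 77751 RPM (62968 to 89137) in WT livers. Summed cholangiocyte markers had 62.5 RPM (40.6 to 91.1) in BMKO livers and 21.6 RPM (11 to 45.4) in WT livers, and stellate cell markers 176 RPM (104 to 270) and 301 RPM (260 to 349). Kupffer cell markers had 229 RPM (129 to 465) in BMKO livers and 258 RPM (124 to 451) in WT livers, and endothelial markers had 287 RPM (207 to 346) and 334 RPM (253 to 375). Against the 71.7% of all genes called, single markers were called for the daily mean in 4 of 7 hepatocyte, 8 of 10 Kupffer cell (6 lower), 7 of 8 endothelial (5 lower) and 5 of 7 stellate cell genes (4 lower). Their part in the members' differences was not tested, and in bulk liver fewer cells of a type and less RNA per cell cannot be told apart. Stellate sums in BMKO and WT livers were 310 and 289 RPM with vehicle and 413 and 302 RPM with rapamycin, so they were lower only without injection. Endothelial sums were 337 and 355 RPM with vehicle and 341 and 303 RPM with rapamycin. With vehicle the hepatocyte (49306 and 77312 RPM) and cholangiocyte sums (58.6 and 29.2 RPM) differed the same way as without injection.

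Among night-fed WT livers Cry1 was higher with vehicle than without injection, in comparisons that share arms with those of genotype. Cry1 averaged 24.9 ± 4.62 RPM with vehicle and 18.8 ± 3.89 RPM without injection (SD within times, n = 18 each), a log2 difference of 0.46 (SE 0.0972, adjusted p = 0.00017). At ZT 2 it had 24.1, 24.3 and 15.1 RPM with vehicle, against 12.7, 11.2 and 11.7 RPM without, and the libraries did not overlap at 3 of 6 times. Per3 was lower with vehicle (-0.40, SE 0.153, adjusted p = 0.0418), a call lost at a pseudocount of 0.1 (0.0528), in a joint fit (0.0566) and without the first (0.104) or second libraries (0.588). These 2 calls stood against 27.3% of all genes. No rhythm difference was called by limma (0 members, 0% of all genes), with 1 member, Per2, at an unadjusted p under 0.05 and 0 by edgeR.

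In BMKO livers with vehicle, against those without injection, Per1 (-0.49, SE 0.2, adjusted p = 0.0301), Cry1 (-0.25, SE 0.0972, adjusted p = 0.0224) and Cry2 (-0.25, SE 0.1, adjusted p = 0.0234) were lower for the daily mean, 3 members against 60.4% of all genes. All 3 calls were lost with DESeq2's size factors and with the deposited scaling. That of Per1 was also lost by edgeR (0.0714) and without any 1 replicate number (0.082 to 0.0921), that of Cry1 in a joint fit (0.0802) and without the second (0.147) or the third libraries (0.491, with a difference of -0.10), and that of Cry2 without the second (0.364) or the third libraries (0.0643). With the deposited scaling, which moves the median of all genes by 0.27 (log2) in this pair, Cry1 and Cry2 reversed to 0.04 and 0.03. No rhythm difference was called by limma for any member (0, against 0% of all genes), with 0 at an unadjusted p under 0.05 and 0 by edgeR.

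With rapamycin the 5 strongly cycling members kept a called rhythm in WT livers, and Cry2 was lower than with vehicle. The vehicle arms are the same ones used above. Amplitudes with rapamycin and with vehicle were 1.53 and 1.73 for Per1, 1.28 and 1.26 for Per2, 2.15 and 1.74 for Per3, 1.43 and 1.46 for Cry1 and 1.74 and 1.92 for Ciart. Cry2 averaged 13 ± 2.71 RPM with rapamycin and 16.6 ± 3.54 RPM with vehicle (SD within times, n = 18 each). At ZT 14 it had 13.8, 15.2 and 13.7 RPM with rapamycin, against 16.9, 22.6 and 19.3 RPM with vehicle. The libraries did not overlap at 2 of 6 times, a count not taken over all genes. Its log2 difference was -0.34 (SE 0.1, adjusted p = 0.0115), a call lost without the first (0.0538) or second libraries (0.204). It was the only member called for the daily mean, against 18.5% of all genes. Summed hepatocyte markers had a median of 59371 RPM (42062 to 75605) with rapamycin and 77312 RPM (64948 to 104033) with vehicle, and 3 of 7 were called, all lower. Their part in the difference of Cry2 was not tested. For the rhythm, limma called 0 members and 0% of all genes, with 1 member, Ciart, at an unadjusted p under 0.05 and 0 by edgeR.

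In BMKO livers rapamycin gave no called member for the daily mean by limma (0, against 11.9% of all genes), with 1 at an unadjusted p under 0.05 and 0 by edgeR. That one was Per1, with 6.13 ± 2.39 RPM under rapamycin and 4.31 ± 2.13 RPM under vehicle (SD within times, n = 18 each), a log2 difference of 0.56 (SE 0.2, adjusted p = 0.054). With the deposited scaling, without the libraries under 3 M reads or in a joint fit the count of called members was 1. For the rhythm limma called 0 members, against 0.29% of all genes, with 2 (Per1 and Cry1) at an unadjusted p under 0.05 and 0 by edgeR. Per1 and Per2 had amplitudes of 0.45 and 0.57 with rapamycin (adjusted p = 0.478 and 0.415) and of 0.84 and 0.77 with vehicle.

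The rapamycin effect in BMKO livers minus that in WT livers was called for 1 member, Cry2 (0.40, SE 0.142, adjusted p = 0.0447), against 14.3% of all genes. This call was lost with no filter (0.0537), by edgeR (0.0553) and without the first (0.261) or second libraries (0.285). For the rhythm limma called 0 members and 0% of all genes, with 1, Per1, at an unadjusted p under 0.05 and 0 by edgeR.

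Loss of Tsc1 in the liver, which removes a brake on mTOR complex 1, went with lower daily means of Per1 and Ciart on the log2 scale. Loss of Raptor, a subunit of that complex, left 5 of the 6 daily means uncalled. TSKO and RPKO livers were not tested against each other, so these results do not show that the deletions differ. Per1 in TSKO livers had 0.329, 1.70 and 0.564 RPM at ZT 6, against 2.29, 5.58 and 3.10 RPM in AC livers. At ZT 10 it had 8.94, 7.95 and 10.7 RPM in TSKO livers, against 12.9, 15.3 and 12.3 RPM in AC livers. TSKO libraries lay wholly below AC libraries at 3 of 6 times. The log2 difference of Per1 was -0.54 (SE 0.145, adjusted p = 0.00299), lost without the first libraries (0.0549).

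Ciart in TSKO livers had 0, 0.392 and 0.470 RPM at ZT 6, against 0.994, 1.70 and 1.84 RPM in AC livers, and at ZT 22 it had 0, 0.312 and 0.387 RPM, against 0.867, 0.719 and 1.02 RPM. In the 2 TSKO libraries without a Ciart read, 3 reads would be 0.347 to 0.494 RPM, so these low values lie near the floor. At ZT 10, its highest time, the groups overlapped, with means of 11.5 RPM in TSKO and 9.91 RPM in AC livers. The log2 difference of Ciart was -0.61 (SE 0.15, adjusted p = 0.00119), and it kept its call under all alternatives run. Its size ran from -0.96 to -0.30 under other settings, so it is no firm measure. Per3 was lower as well (-0.36, SE 0.14, adjusted p = 0.0429), a call lost by edgeR (0.0739), in a joint fit (0.11), at a pseudocount of 0.1 (0.0545) and without any 1 replicate number (0.0984 to 0.151). Cry2 at ZT 2 had 14.2, 12.4 and 13.8 RPM in TSKO livers, against 8.07, 11.4 and 12.1 RPM in AC livers, with a daily log2 difference of 0.22 (adjusted p = 0.054). Thus 3 members were called, against 36.6% of all genes.

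The rhythms of the members did not pass the test of a difference with either deletion. With Tsc1 loss limma called 0 members, against 0.00815% of all genes, with 1 (Per1) at an unadjusted p under 0.05 and 0 by edgeR. The peak of Per1 was at ZT 14.6 in TSKO livers and ZT 13 in AC livers, a difference of 1.52 h (SE 0.481). In RPKO livers, set against the same AC livers, limma also called 0 rhythm differences (0% of all genes), with 1 at an unadjusted p under 0.05 and 0 by edgeR. That one was Ciart, with 15.0, 14.5 and 21.9 RPM at ZT 10 in RPKO livers, against 10.5, 6.67 and 12.6 RPM in AC livers. At ZT 2 it had 0, 0 and 0.170 RPM in RPKO livers, against 0.12, 0.655 and 0.257 RPM in AC livers. Its amplitude was 2.63 (SE 0.175) in RPKO livers and 1.88 (SE 0.118) in AC livers, but the rhythm difference had an adjusted p of 0.967.

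For the daily mean in RPKO livers 1 member was called, Per3 (-0.38, SE 0.14, adjusted p = 0.0249), against 42.4% of all genes. This call was lost by edgeR (0.0566), in a joint fit (0.0703) and without the second (0.272) or the third libraries (0.0604). With the deposited scaling, which moves the median of all genes by -0.23 (log2) in RPKO livers, 6 members were called. Among list genes, Usp2 was lower in TSKO livers (-0.77), where 7 of 15 kinases and stability factors and 5 of 9 REV-ERB, PAR bZIP and DEC genes were called. In RPKO livers 6 of 15 and 6 of 9 were called, among them the casein kinase gene Csnk1d (-0.63). Summed hepatocyte markers had a median of 61168 RPM in RPKO livers and 79147 RPM in AC livers, whose part was not tested.

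In arrhythmically fed WT livers with AZD8055 at dawn, Per1 and Ciart were higher at ZT 2 than without injection, and the rhythms of Per1, Per2 and Ciart differed. Per1 had 11.1, 20.2 and 13.4 RPM at ZT 2 with AZD8055 at dawn, against 1.15, 0.715 and 2.87 RPM without injection, a log2 difference of 2.99 (SE 0.495, adjusted p = 7.59e-05). At ZT 6 it had 11, 13.7 and 10.8 RPM with the drug, against 4.63, 4.22 and 1.25 RPM without (1.82, SE 0.495, adjusted p = 0.00873), a call lost without the third libraries (0.181). The groups did not overlap at either time. Ciart at ZT 2 had 3.53, 16.1 and 2.26 RPM with the drug, against 0.716, 0.596 and 1.03 RPM without (2.17, SE 0.558, adjusted p = 0.0117), with 1 library far above the other 2. The Ciart call was lost without the first (0.0835) or second libraries (0.31).

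Later in the day the order turned for Ciart, and Per2 was higher. At ZT 10 Ciart had 1.63, 2.69 and 1.68 RPM with the drug, against 5.03, 11.2 and 9.04 RPM without (-1.80, SE 0.558, adjusted p = 0.0159), and Per2 had 58.9, 50.2 and 70.0 RPM, against 33.5, 25.9 and 23.5 RPM (1.10, SE 0.363, adjusted p = 0.0233). Neither pair of groups overlapped, yet both calls were lost without any 1 replicate number. The shares of all genes called at single times were 7.27% at ZT 2 (2 members), 16.2% at ZT 6 (1), 23.2% at ZT 10 (2), 10.9% at ZT 14, 2.05% at ZT 18 and 1.26% at ZT 22. At the last 3 times limma called 0 members and edgeR 0 at each, with 2 (Cry1 and Ciart), 1 (Per2) and 1 (Cry1) at an unadjusted p under 0.05.

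Fitted peaks with AZD8055 at dawn minus those without injection differed by -5.37 h for Per1 (SE 0.869), -4.12 h for Ciart (SE 0.761), -2.18 h for Cry1 (SE 0.506), -1.99 h for Per2 (SE 0.544) and -1.70 h for Per3 (SE 0.53). With the drug at dawn, Per1 and Ciart had their highest means at ZT 2 (14.9 and 7.30 RPM), but their fitted peaks were at ZT 7.24 and ZT 6.06. A short response need not follow a 24 h cosine, so these 2 differences are no measure of a shifted rhythm. The rhythm difference was called for 3 of 6 members, against 14.7% of all genes. They were Per1 (1.54, SE 0.286, adjusted p = 0.000619), Ciart (1.62, SE 0.322, adjusted p = 0.00133) and Per2 (0.87, SE 0.21, adjusted p = 0.01), and Cry1 had an adjusted p of 0.0531. The Per1 call was lost without the third libraries (0.0612), that of Ciart without the second (0.0642) and that of Per2 without the second (0.107) or the third (0.116). For the daily mean 1 member was called, against 41% of all genes. Per1 averaged 8.33 ± 2.95 RPM with the drug and 5.29 ± 2.20 RPM without (SD within times, n = 18 each), a log2 difference of 0.65 (SE 0.202, adjusted p = 0.00937), lost without the second libraries (0.0794).

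At ZT 2 with AZD8055 at dawn, 8 of 10 glucocorticoid-responsive genes were called and all 8 were higher than without injection, with a list median of 1.77 and a median of -0.00474 over all genes. Of the rhythm differences, 7 of 10 of that list, 4 of 5 activators and ROR receptors and 4 of 9 REV-ERB, PAR bZIP and DEC genes were called. Among them Nr1d1 had amplitudes of 2.54 and 2.41, and Usp2 of 1.13 and 2.33. The list gene Lcn2, also an acute phase gene, was higher by 7.24 (log2) over the day. These arms differ by injection as well as drug, since the arrhythmically fed controls were not injected, so the part of each cannot be told apart. Of single cell type markers, 3 of 10 Kupffer cell genes were called higher with the drug at dawn and 5 of 10 with the drug at dusk, against daily means called for 41% and 50.8% of all genes, and 3 of 3 lymphocyte and neutrophil genes were called in each (2 higher and 1 lower), whose part in the members' differences was not tested.

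With AZD8055 at dusk, set against the same uninjected livers, Per2 was the member that differed. Per2 had 13.9, 12.1 and 26.5 RPM at ZT 2 with the drug, against 4.87, 5.60 and 7.91 RPM without (1.38, SE 0.363, adjusted p = 0.00969). At ZT 22 it had 26.5, 33.7 and 14.4 RPM with the drug, against 9.49, 15.9 and 5.22 RPM without (1.29, SE 0.363, adjusted p = 0.0102). At ZT 14, the sample soon after dusk, it had 16.6, 21.6 and 25.3 RPM with the drug, against 34.9, 37.0 and 28.5 RPM without. At ZT 10 it had 38.2, 42.7 and 42.8 RPM with the drug, against 33.5, 25.9 and 23.5 RPM without. So the libraries with the drug all lay above the uninjected ones at ZT 2 and ZT 10 and all below them at ZT 14, and the differences at ZT 10 and ZT 14 were not called. Its amplitude was 0.34 with the drug (adjusted p = 0.248) and 1.17 without.

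Per2 was the member called for the daily mean with AZD8055 at dusk (1 of 6, against 50.8% of all genes), averaging 25.8 ± 7.75 RPM with the drug and 18.7 ± 5.30 RPM without (SD within times, n = 18 each; log2 difference 0.61, SE 0.148, adjusted p = 0.000718). It was also the one called for the rhythm (0.83, SE 0.21, adjusted p = 0.03; 1 of 6, against 5.75% of all genes), a call lost without any 1 replicate number (0.0691 to 0.209). The ZT 2 call was lost without the first (0.0806) or second libraries (0.067) and the ZT 22 call without the first (0.106) or second (0.0513). Shares of all genes called were 12.3% at ZT 2 (1 member), 5.49% at ZT 6, 2.34% at ZT 10, 16.9% at ZT 14, 18.9% at ZT 18 and 19.7% at ZT 22 (1). At ZT 6, 10, 14 and 18 limma called 0 members, with 0, 0, 1 (Cry2) and 0 at an unadjusted p under 0.05, and edgeR called 0 except at ZT 14, where it called 1. At ZT 14 the HSF1 chaperones were lower for 12 of 14 genes, with a list median of -0.90, and 9 of 14 had a called rhythm difference, among them Hsp90aa1 and Hsph1.

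**Figure D4:**
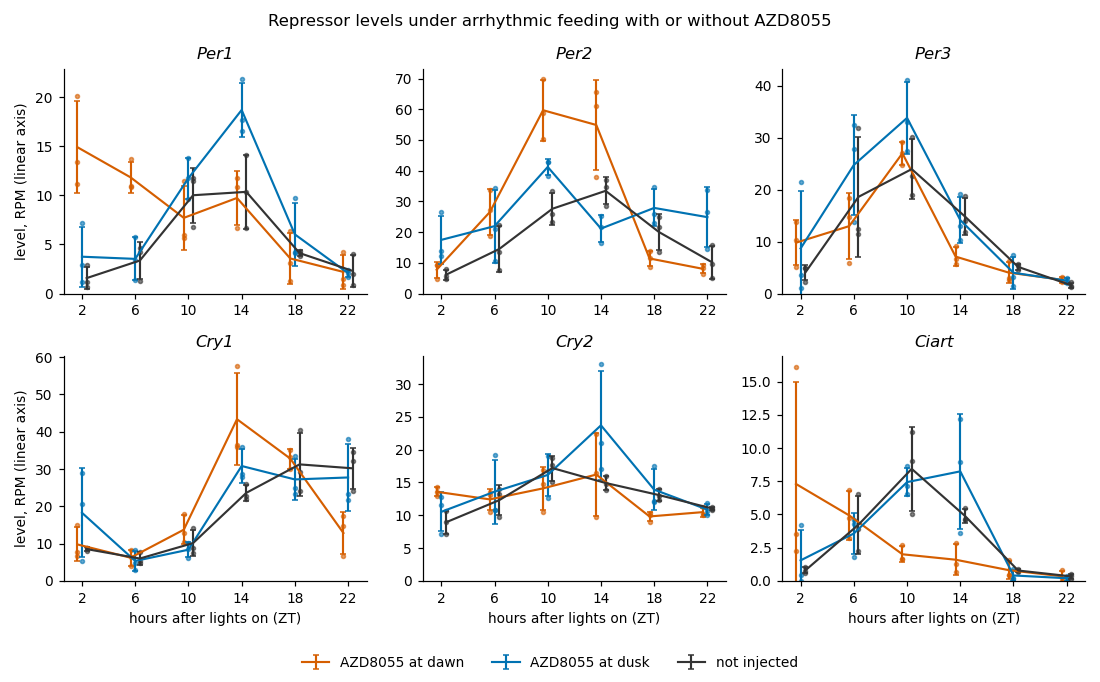
Level of each member (RPM, linear axis from 0) against zeitgeber time (h) in arrhythmically fed WT livers with AZD8055 at dawn, with AZD8055 at dusk and without injection. Points are libraries, lines join means of 3 libraries and bars are the SD; Per1 and Ciart at ZT 2 are highest with the drug at dawn, and Per2 has its smallest amplitude with the drug at dusk.

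Under tunicamycin all 6 members were rhythmic in all 3 arms, and the rhythm of 4 differed between arrhythmic and night feeding. Cry1 in arrhythmically fed livers had 46.1, 62.6, 48.2 and 60.6 RPM at ZT 16, against 33.2, 19.2, 35.9 and 29.3 RPM in night-fed livers. At ZT 22 it had 30.9, 26.8, 35.7 and 34.5 RPM under arrhythmic feeding, against 48.0, 57.8, 51.2 and 43.4 RPM under night feeding. The groups did not overlap at any of the 4 times, higher at 2 and lower at 2. Its peak was 3.03 h earlier under arrhythmic feeding (difference -3.03 h, SE 0.362), with amplitudes of 1.38 and 1.4.

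Peaks under arrhythmic minus night feeding with tunicamycin were -3.73 h for Cry2 (SE 0.882), -3.31 h for Per1 (SE 1.06), -2.52 h for Per3 (SE 0.421), -1.90 h for Per2 (SE 0.39) and -1.42 h for Ciart (SE 0.756). The rhythm difference was called for Cry1 (1.07, SE 0.16, adjusted p = 7.83e-05), Per3 (1.27, SE 0.22, adjusted p = 0.000699), Per2 (0.85, SE 0.195, adjusted p = 0.0167) and Cry2 (0.59, SE 0.139, adjusted p = 0.0208), 4 of 6 members against 4.36% of all genes. The Cry1 call held under all alternatives run, that of Per3 was lost without the third libraries (0.062), and those of Per2 and Cry2 were lost without any of the last 3 replicate numbers (up to 0.134 and 0.183). The rhythm of Per1 under arrhythmic feeding (amplitude 0.43, adjusted p = 0.0387) was lost with no filter (0.055) and without the first (0.0933), second (0.195) or the third libraries (0.16). For the daily mean limma called 0 members, against 0.555% of all genes, with 1 (Per3, adjusted p = 0.0964) at an unadjusted p under 0.05 and 0 by edgeR.

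Beside the members, 3 of 5 activators and ROR receptors and 6 of 9 REV-ERB, PAR bZIP and DEC genes had a called rhythm difference under tunicamycin, with amplitudes under arrhythmic and night feeding of 2.77 and 3.80 for Dbp, 1.45 and 1.78 for Tef and 1.91 and 2.53 for Arntl. AZD8055 at dusk added to tunicamycin, set against arrhythmically fed tunicamycin livers, gave 0 called members for the daily mean by limma (8.85% of all genes), with 2 (Per1 and Cry2) at an unadjusted p under 0.05 and 0 by edgeR. Per2 at ZT 10 had 30.8, 47.1, 27.0 and 40.8 RPM with AZD8055, against 40.6, 35.2, 32.4 and 32.9 RPM without it. For the rhythm limma called 0 members (0.0326% of all genes), with 0 at an unadjusted p under 0.05 and 0 by edgeR.

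The 2 tables were scaled apart and taken in separate sets, so their levels are only set side by side. At ZT 22 Per1 had 33.9 ± 4.17 RPM in night-fed livers with tunicamycin (n = 4) and 1.79 ± 2.05 RPM in untreated night-fed livers (SD, n = 3). At ZT 10 it had 39.1 ± 2.72 RPM with tunicamycin and 14.5 ± 0.692 RPM without. Ciart at ZT 22 had 13.9 ± 6.50 RPM with tunicamycin and 0.859 ± 0.633 RPM without, and Per3 at ZT 10 had 15.2 ± 1.48 RPM with tunicamycin and 33.3 ± 3.54 RPM without. For the 2 shared times log2 ratios were taken on RPM of the plain library size. That of Per1 was 2.06, exceeded by 1.4% of 12766 genes, and that of Ciart was 1.66, exceeded by 2.55%. Table and treatment cannot be told apart here.

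**Figure D5:**
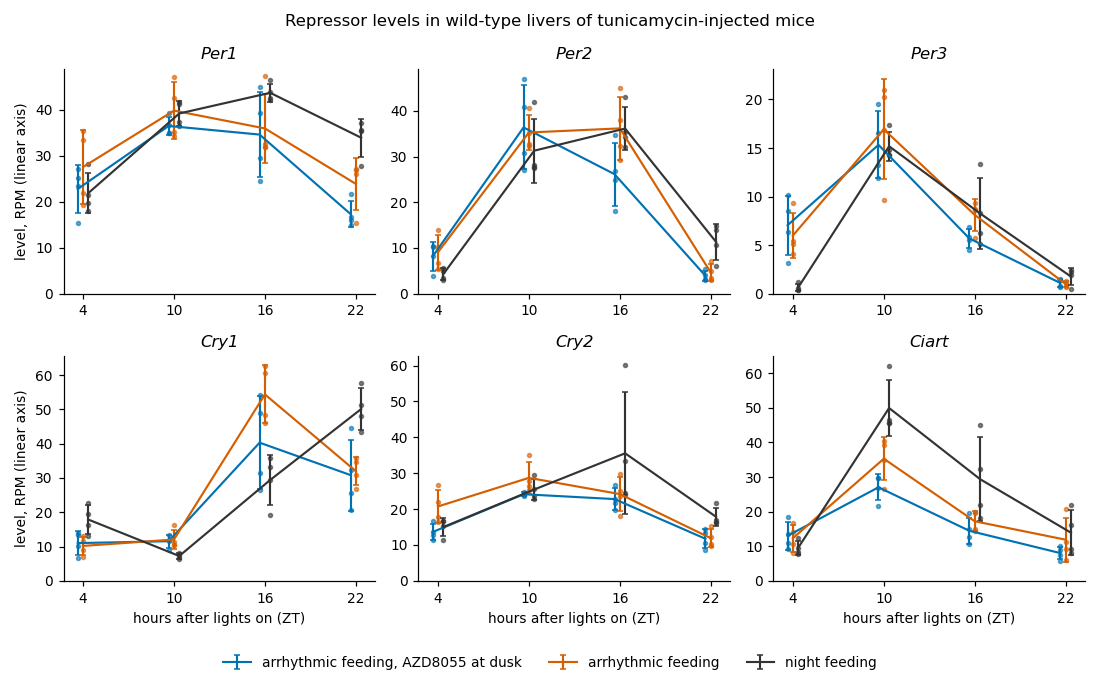
Level of each member (RPM, linear axis from 0) against zeitgeber time (h) in the 3 tunicamycin arms, arrhythmically fed with AZD8055 at dusk, arrhythmically fed and night fed. Points are libraries, lines join means of 4 libraries and bars are the SD; Cry1 is highest at ZT 16 in both arrhythmically fed arms and at ZT 22 in the night-fed arm.

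Ordered over the 13 arms of the first table, few gaps between daily mean levels passed the wide measure used. That measure was the larger SD of single libraries within times in a pair of arms, not the error of the arm means. Levels of 1 arm and the next differed beyond it in 1 of 12 neighbouring pairs for Cry1 and for Per3, and in 0 of 12 for the other members. A count of 0 therefore does not show that arms were alike. For Cry1 the gap lay between BMKO with rapamycin (50.9 ± 9.17 RPM) and WT with vehicle (24.9 ± 4.62 RPM), with the 3 BMKO arms on top and ad libitum WT livers lowest at 16.5 ± 4.72 RPM. For Per3 it lay between uninjected BMKO (4.00 ± 2.04 RPM) and WT with rapamycin (9.75 ± 2.73 RPM). Cry2 ran from 24.5 ± 6.05 RPM in uninjected BMKO livers to 12.8 ± 3.01 RPM with AZD8055 at dawn, and Per2 from 28.1 ± 8.01 RPM with AZD8055 at dawn to 18.7 ± 5.30 RPM under arrhythmic feeding. Per1 ran from 8.33 ± 2.95 RPM with AZD8055 at dawn to 4.06 ± 1.01 RPM in TSKO livers. Ciart ran from 6.32 ± 3.16 RPM in RPKO livers to 0.0676 ± 0.143 RPM in uninjected BMKO livers (SD within times, n = 18 per arm for all of these values). Its gap between AZD8055 at dawn (2.83 RPM) and BMKO with vehicle (0.235 RPM) was 2.59 RPM, against an SD of 3.27 RPM. Ordered by amplitude, with gaps set against the combined SE, 3 of 12 pairs passed for Per3 and for Ciart. By amplitude 2 passed for Cry1, 1 each for Per1 and Per2, and 0 for Cry2.

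The genes whose group means over the 78 combinations of arm and time in the first table were most like each member were named by Pearson correlation, among 8174 genes that averaged 5 RPM or more. The 78 points share arms and times of day, and both genes of a pair were read in the same libraries, so these values are descriptions only. Per1 was most like Usp2 (0.889), Klf13 (0.813) and Tef (0.813). Per2 stood nearest to the chaperone gene Dnajb1 (0.813), Slc37a4 (0.777) and Foxa3 (0.76). Per3 was nearest to Dbp (0.918), Tef (0.881) and Pcsk4 (0.828), and Ciart to Coq10b (0.908), Pcsk4 (0.863) and Per3 (0.859). The 3 genes nearest to Cry1 included Ppard (0.86) and Cdkn1a (0.843), while Cry2 had no gene closer than Phf20 (0.706), Tmem97 (0.701) and Lancl1 (0.699).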

How the data were processed

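Liver RNA of 282 mice was read with the QuantSeq 3′ kit, and the labels name biological replicates. STAR 2.7.3a, SAMtools and mm10 (GRCm38.p6) were used per the submitters' processing notes. How reads were counted, with which annotation and strand setting, and how libraries were normalized is not given in the sources used here. Per gene, the authors deposited a signal, read counts divided by 1 factor per library. Whole reads were recovered from their steps (tolerance 0.01) for 100% of values in 264 of 282 libraries and at least 98.8% in the rest. The 201 gene entries off the steps stayed out of the RPKO fits. The 6 members and the lists were chosen with earlier results of these data known.

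Reads were rescaled within each table by TMM (edgeR 4.0.16) to RPM, genes that averaged 1 RPM or more were kept (12414, 12263 in the fit with RPKO and 12261 in the tunicamycin table), and log2(RPM + 0.5) was fitted with limma 3.58.1 (R 4.3.3), with a mean for each arm and time. Summed cell type markers and the log2 ratios between the tables used RPM of the plain library size, without TMM. Fold changes refer to log2(RPM + 0.5), where low genes appear to change less than they do. Rhythms were tested by a joint F test on a cosine and a sine of 24 h, and differences in rhythm by the same pair of terms between arms. P-values were adjusted by Benjamini-Hochberg over all tested genes, with a threshold of 0.05. The fits across genes were tested on simulated data. As an alternative, edgeR's quasi-likelihood test was run on the recovered reads; it called 2718 genes rhythmic in uninjected night-fed WT livers.

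Other alternatives were DESeq2's size factors, the deposited scaling, no filter, pseudocounts of 0.1 and 2, a replicate block, a joint fit, leaving out libraries under 3 M reads, each replicate number or the 2 doubtful ad libitum libraries, and promoters without the 50 bases after the start. All 6 members are named in every comparison, with the 3 genes most like each, and list members are counted with up to 4 of smallest adjusted p named, apart from some genes that are not reported here. Floors of 3 reads cover counting error only.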

Additional observations from a re-analysis of the deposited data

Results flagged for a closer look

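In the tunicamycin table, where each group has 4 libraries, 6 of 72 groups of a member held a library that lay far from the other 3, which chance gives in about 1 of 20 groups. Per1 under arrhythmic feeding had 47.3 RPM in replicate 4 at ZT 16 and 15.4 RPM in replicate 3 at ZT 22. Per2 under night feeding had 41.9 RPM in replicate 2 at ZT 10. Cry1 under arrhythmic feeding had 16.2 RPM in replicate 2 at ZT 10. Cry2 under night feeding had 21.7 RPM in replicate 3 at ZT 22, and Ciart under night feeding had 62.2 RPM in replicate 4 at ZT 10.

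The difference between BMKO and WT livers itself differed between vehicle-injected and uninjected mice in 4 of 6 members by limma, against 57.1% of all genes, by -0.78 for Per1, -0.71 for Cry1, -0.43 for Cry2 and 0.71 for Ciart on the log2 scale (with vehicle minus without). The calls of Per1, Cry2 and Ciart were lost under at least 1 alternative, and the Ciart value rests on 40 and 13 reads in the BMKO arms. The response of Cry2 to rapamycin differed by 0.40 between BMKO and WT livers, where 14.3% of all genes were called, and this call was lost under 4 of 12 alternatives.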

How the results depend on the processing

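Of 128 called values of single members, 84 kept their call under every alternative run and 44 lost it under at least 1, mostly when the libraries of 1 replicate number were left out. Of 60 counts of called members, 33 stayed within 1.5 times under every alternative. With the deposited scaling, Cry1 and Cry2 in BMKO livers with vehicle against without injection reversed to 0.0415 and 0.0317. That scaling shifts the median of all genes by 0.317 (BMKO against WT with vehicle), 0.267 (BMKO with vehicle against none), -0.226 (RPKO against AC) and -0.121 (WT with vehicle against none) on the log2 scale. It gave 6 called daily means in RPKO livers against 1, 2 for AZD8055 at dawn and 2 at dusk against 1 each, 1 for rapamycin in BMKO livers against 0, 2 for AZD8055 at dawn at ZT 6 against 1 and 1 at dusk at ZT 14 against 0.

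DESeq2's size factors gave 0 called daily means for vehicle in BMKO livers against 3. With no filter, daily means under arrhythmic against night feeding fell to 0 and the rapamycin difference between genotypes to 0, each against 1, and rhythms in BMKO livers with vehicle numbered 1 against 2. A pseudocount of 2 also gave 1 there, and one of 0.1 gave 1 for vehicle in WT livers against 2 and 1 for AZD8055 at dawn at ZT 10 against 2. edgeR gave 0 for the rapamycin difference between genotypes, RPKO and ad libitum daily means against 1 each, 1 rhythm in BMKO livers with vehicle against 2, and 1 for AZD8055 at dusk at ZT 14 against 0. The joint fit gave 0 daily means for RPKO, arrhythmic and ad libitum feeding against 1 each, 1 for vehicle in WT livers against 2, and 1 against 0 for rapamycin in BMKO livers, for rhythms in BMKO livers with rapamycin and for AZD8055 at dawn at ZT 14 and ZT 22. Without libraries under 3 M reads, rapamycin in BMKO livers gave 1 against 0. The cause of these changes was not tested.

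Same-numbered libraries correlated in their deviations from group means by -0.418 to 0.494 across compared arms (248 pairs, median 0.0233, 67 over 0.1). The correlations were highest for rapamycin against vehicle in BMKO livers (median 0.162, 11 of 18 over 0.1) and for ad libitum against night feeding (0.114, 10 of 18), and no comparison had all pairs over 0.1, so the numbers were not taken as pairs. The replicate block gave 1 called member against 0 for the daily mean with rapamycin in BMKO livers and 1 against 0 for the rhythm difference of arrhythmic feeding, and rhythms numbered 6 against 5 in AC and in WT with vehicle and 3 against 2 in BMKO without injection and with vehicle. The rhythm difference count for arrhythmic feeding was 2 without the doubtful ad libitum libraries, which were picked by their Cry1 values.

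Leaving out 1 replicate number gave 0 to 1 members for the rapamycin difference between genotypes, 1 to 4 for the vehicle difference, 0 to 2 for vehicle in BMKO livers, 0 to 2 for RPKO, 1 to 2 for TSKO, 0 to 1 for AZD8055 at dawn, 0 to 2 for arrhythmic feeding, 0 to 2 for ad libitum feeding, 0 to 1 for rapamycin in WT livers and 1 to 3 for vehicle in WT livers, all for daily means. For rhythms it gave 0 to 2 in BMKO livers with vehicle and 3 to 6 with AZD8055 at dawn. For rhythm differences it gave 1 to 3 with AZD8055 at dawn, 0 with AZD8055 at dusk and 1 to 4 for arrhythmic feeding under tunicamycin. At single times it gave 1 to 2 (ZT 2), 0 to 2 (ZT 6) and 0 (ZT 10) with AZD8055 at dawn, and 0 to 2 (ZT 2) and 0 to 1 (ZT 22) at dusk. Motif matches were the same in the upstream bases alone. Few reads limit Ciart in BMKO livers, with 13 reads in the uninjected arm. A planned description of the proteins was not run.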
